A study of Drosophila melanogaster with 3 samples.

Results

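The Dpp pathway genes were the 10 genes dpp, gbb, tkv, sax, put, Mad, Med, shn, brk and Dad, taken by name from the 13968 protein-coding genes of the main chromosome arms. ChIP-seq, the sequencing of DNA recovered by immunoprecipitating chromatin, was done with an anti-GFP antibody on Drosophila melanogaster embryos of the line mam-MiMIC-GFP, in which an eGFP exon sits in an intron of the endogenous mam gene, so that mam's own regulatory sequences drive the Mam-GFP fusion. Whole embryos aged 0 to 24 hours, both sexes together, gave 3 biological replicates of 1 group, so there was no contrast between conditions and every cell type and stage was mixed. A peak bound in few cells and one bound weakly in many cannot be told apart in such a sample. For each gene, peaks were taken whose summit lay between 5000 bp before and 5000 bp after the gene, a stretch called its window here. Of the 24073 peaks of the pooled replicates, the 5326 that passed the authors' irreproducible discovery rate (IDR) procedure are called reproducible peaks, and they were the 5326 with the highest signal. Signal is the authors' peak height in a scaling that was not stated, so signals and ranks (1 for the highest) are read within a list only. The peak lists carry no read numbers, so sample depth is unknown.

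Decapentaplegic (Dpp) and Glass bottom boat (Gbb) are secreted BMP-type ligands. They bind complexes of the type II receptor Punt (put) with a type I receptor, Thickveins (tkv) or Saxophone (sax), which phosphorylate the Smad protein Mad. Mad joins the co-Smad Medea (Med) and enters the nucleus, where the complex can recruit the zinc finger protein Schnurri (shn) to silencer elements and shut off brinker (brk), a repressor of Dpp targets. Daughters against dpp (Dad) is an inhibitory Smad that is itself induced by the pathway. In the embryo the pathway patterns the dorsal side, and later the visceral mesoderm, tracheae and dorsal closure. Mastermind (Mam) is the nuclear coactivator that joins Suppressor of Hairless, Su(H), and the Notch intracellular domain.

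All 10 genes had at least 1 reproducible summit in their window, and together they held 28 reproducible and 107 pooled summits. The windows were placed on dm6 and the sequences below come from RefSeq's Release 6 genome, which is the dm6 sequence, written 5′ to 3′ on the strand of the named gene. The first set shows 201 bases centred on the strongest summit of dpp, Mad, Dad, brk and tkv, members whose strongest summit lay in an intron, either of the gene itself or, for brk, of the surrounding gene CG1677. They are chr2L:2433525-2433725 on the plus strand for dpp, chr2L:3153346-3153546 on the minus strand for Mad, chr3R:17065081-17065281 on the plus strand for Dad, chrX:7307021-7307221 on the plus strand for brk and chr2L:5225677-5225877 on the minus strand for tkv. Capitals mark a match to the Su(H) site in the dpp sequence and a match to the Brk site in the Mad sequence, and the Dad, brk and tkv sequences held neither. The strongest summit of shn also lay in an intron, and its sequence is not printed here.
dpp summit: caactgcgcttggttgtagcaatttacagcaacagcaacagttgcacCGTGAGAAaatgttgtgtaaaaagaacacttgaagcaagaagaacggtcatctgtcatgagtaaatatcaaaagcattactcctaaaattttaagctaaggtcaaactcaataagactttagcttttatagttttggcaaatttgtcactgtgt
Mad summit: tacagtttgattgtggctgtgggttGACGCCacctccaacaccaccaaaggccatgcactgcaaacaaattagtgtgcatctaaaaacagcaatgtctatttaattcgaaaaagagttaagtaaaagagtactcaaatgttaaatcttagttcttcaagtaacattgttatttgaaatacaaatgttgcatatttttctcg
Dad summit: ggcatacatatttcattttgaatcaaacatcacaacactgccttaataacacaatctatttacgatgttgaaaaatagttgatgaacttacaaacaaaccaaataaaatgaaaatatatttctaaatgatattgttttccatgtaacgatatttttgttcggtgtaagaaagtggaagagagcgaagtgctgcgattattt
brk summit: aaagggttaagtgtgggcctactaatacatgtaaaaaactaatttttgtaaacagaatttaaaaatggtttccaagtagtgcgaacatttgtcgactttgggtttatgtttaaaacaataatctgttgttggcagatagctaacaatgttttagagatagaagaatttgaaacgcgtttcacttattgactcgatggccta
tkv summit: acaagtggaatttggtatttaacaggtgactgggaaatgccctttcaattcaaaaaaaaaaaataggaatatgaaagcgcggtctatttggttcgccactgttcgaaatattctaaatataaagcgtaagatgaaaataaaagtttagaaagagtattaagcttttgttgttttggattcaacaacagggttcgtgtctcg

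The second set comes from the DNA upstream of brk, where 6 of 9 matches to the silencer element of Mad, Med and Shn lay within 500 bp of reproducible summits. All sequences are on the plus strand, that of brk. Capitals mark silencer element matches, except in the 8363 bp sequence, where they mark a Su(H) match. The window of the summit 15954 bp upstream of the brk TSS is chrX:7291885-7292085, and the match near the summit 14170 bp upstream is in chrX:7294074-7294129. For the summit 8363 bp upstream, the window is chrX:7299476-7299676 and a stretch with 3 matches beside it is chrX:7299701-7299939. The match beside the summit 1923 bp upstream is in chrX:7305742-7305797.
brk 15954 bp upstream: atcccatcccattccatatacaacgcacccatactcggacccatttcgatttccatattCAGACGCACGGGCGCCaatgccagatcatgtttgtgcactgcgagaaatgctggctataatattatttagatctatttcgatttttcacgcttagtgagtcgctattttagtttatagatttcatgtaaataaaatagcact
brk 14170 bp upstream, beside the summit: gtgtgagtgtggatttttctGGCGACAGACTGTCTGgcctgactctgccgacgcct
brk 8363 bp upstream: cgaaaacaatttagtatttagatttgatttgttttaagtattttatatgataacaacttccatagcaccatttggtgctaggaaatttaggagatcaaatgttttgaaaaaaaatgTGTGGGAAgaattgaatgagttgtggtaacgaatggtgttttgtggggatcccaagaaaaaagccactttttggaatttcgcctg
brk 8363 bp upstream, beside the summit: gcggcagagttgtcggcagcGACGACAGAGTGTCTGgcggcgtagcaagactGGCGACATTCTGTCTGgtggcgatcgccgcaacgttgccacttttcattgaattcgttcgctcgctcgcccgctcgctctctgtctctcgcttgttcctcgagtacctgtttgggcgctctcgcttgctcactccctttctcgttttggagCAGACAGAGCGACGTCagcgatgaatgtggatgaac
brk 1923 bp upstream, beside the summit: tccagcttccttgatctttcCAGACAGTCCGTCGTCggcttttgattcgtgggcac

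The 10 genes were read against all protein-coding genes measured the same way, as a description without a test, since the list was named with results of these data known. A reproducible summit lay in the window of 10 of the 10 members, and of 56.4% of all 13968 genes. Members' windows were long, with a median of 20131 bp against 12164 bp, and among the 8239 genes with windows as long as theirs (11686 to 68309 bp) the share was 64.1%. Inside the gene itself a reproducible summit was found in 6 of 10 members (dpp, tkv, put, Mad, shn and Dad), against 13.4% of all genes and 19.1% of those with windows as long as the members'. Within 1000 bp of an own transcription start site (TSS) it was found in 4 members (put, Mad, shn and brk), against 29.7% and 36.7%, and within 500 bp in 2 (put and shn), against 26.2% and 32.5%. The members' shares were near the background at their own start sites and above it inside the gene, where longer genes also have more room for a summit. The 6 members with a summit inside the gene were also the longest, from put (6674 bp) to shn (58309 bp). The longest member without one was Med (4330 bp), so inside the list this count followed gene length.

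**Figure D1:**
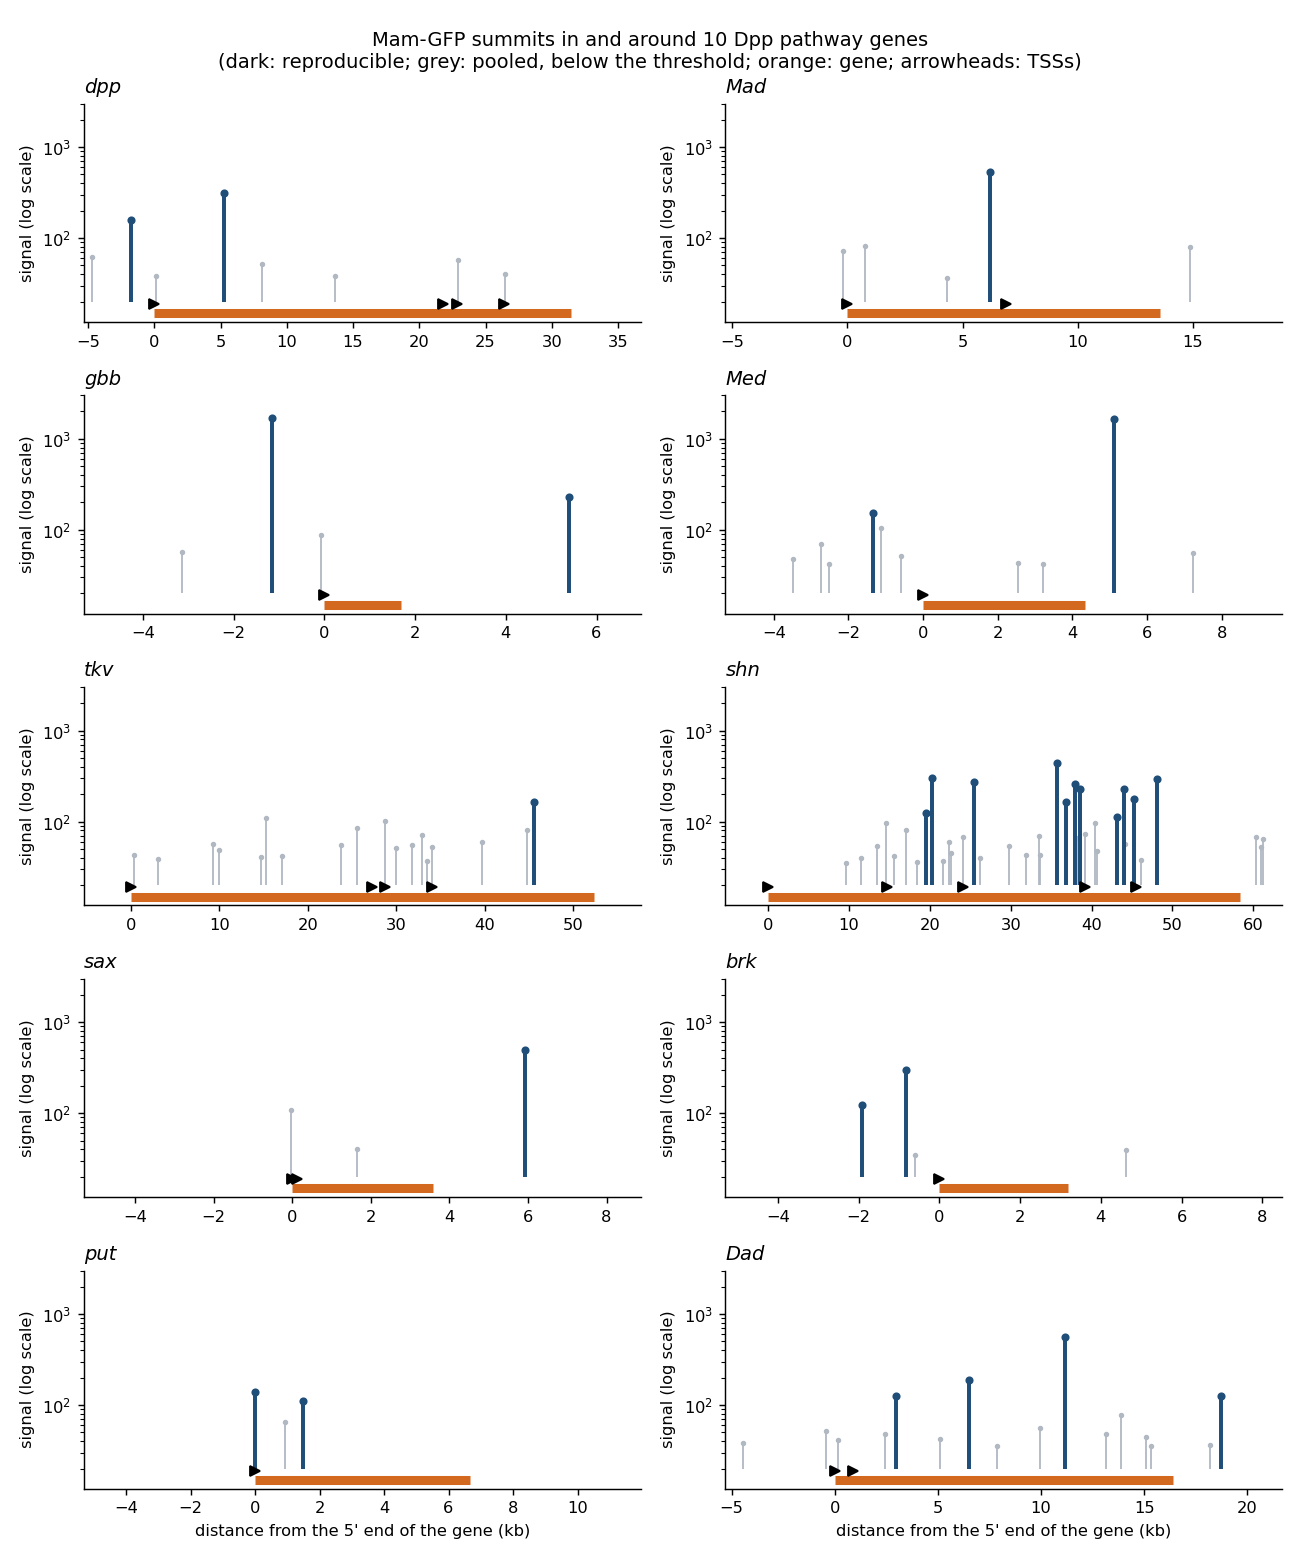
Summits of the pooled list in the window of each of the 10 genes, by distance from the 5′ end of the gene in kb (x axis) and signal on a log scale (y axis); dark stems are reproducible peaks, grey stems are pooled peaks below the threshold, the orange bar is the gene and arrowheads are its TSSs. The 11 reproducible summits of shn lie inside the gene, whereas the strongest summits at gbb (1691) and Med (1630) lie outside it.

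The median density of reproducible summits was 1.30 per 10 kb of window in the members, against 0.576 over all protein-coding genes. Over those with windows of similar length, meaning within the members' range of 11686 to 68309 bp, it was 0.679. In the pooled list the medians were 2.96 and 2.39 per 10 kb. With the windows of each set added together, the members had 0.960 and all genes 0.632 reproducible summits per 10 kb, and 3.67 and 2.37 pooled ones. Taking from each replicate its 5326 strongest peaks, the members' median density was 0.936, 0.747 and 1.08 in replicates 1, 2 and 3 (0.922 ± 0.168, SD, n = 3), and they held 31, 25 and 26 summits. No median density over all genes is given for these replicate lists, so these values are not set against a background. In those lists 9, 10 and 10 members had a summit in the window, against 55.0%, 56.2% and 56.7% of all genes, and put was the member missing from replicate 1. Keeping only part of the reproducible peaks in the same windows cannot raise the members' median above 1.30. Counting only reproducible peaks supported by both other replicates gave the members 0.747 without replicate 1, 0.747 without replicate 2 and 0.609 without replicate 3, against 0.570, 0.493 and 0.487 over genes with windows of similar length. Leaving out summits at promoters of other genes, an alternative chosen after seeing the data, gave 0.453, against a median of 0 over genes with windows of similar length. That median of 0 says only that many of those genes had no summit left.

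**Figure D2:**
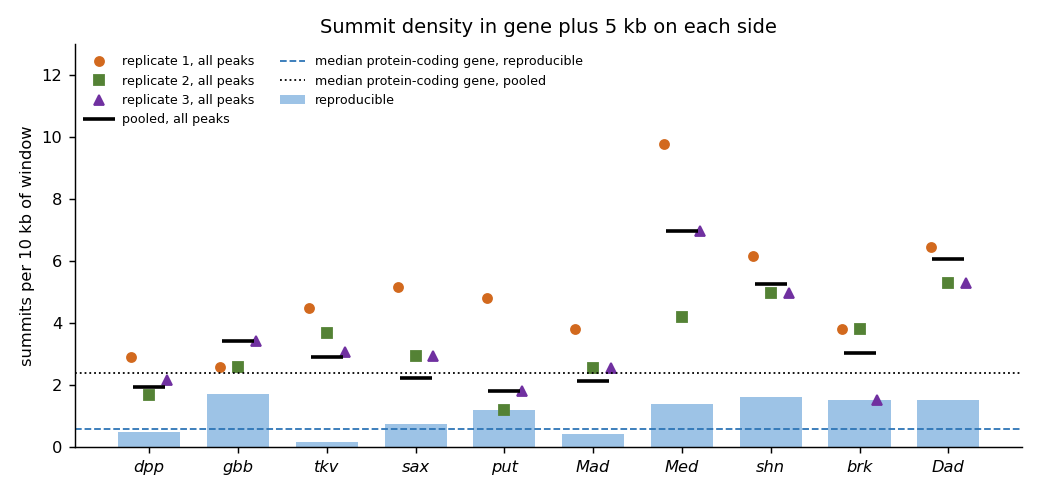
Summits per 10 kb of window for each gene (y axis), with bars for reproducible summits, points for all peaks of each replicate list and black dashes for the pooled list. The dashed and dotted lines are the medians over protein-coding genes, 0.576 for reproducible and 2.39 for pooled summits; dpp, tkv and Mad lie below the first of them.

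Most member summits lay in introns. Of the 28, 19 (67.9%) lay in introns, against 30.5% of all 5326, and 8 (28.6%) lay at promoters, that is within 500 bp of any annotated TSS, against 56.9%. The other one was intergenic, 3.57% against 10.6%. No member summit was classed as coding sequence or UTR, though a summit within 500 bp of a TSS was classed as promoter first. Of the 28, 18 lay inside the member gene and 10 in its flanks. Of the 10 flank summits, 6 were at the promoter of another gene, in the windows of gbb, sax, Med and Dad, and for 19 of the 28 the nearest TSS was the member's own. The 11 summits of shn weigh heavily in these counts, and summits of 1 gene are not independent of each other. Signal was 228 at the median member peak and 195 at the median reproducible peak.

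**Figure D3:**
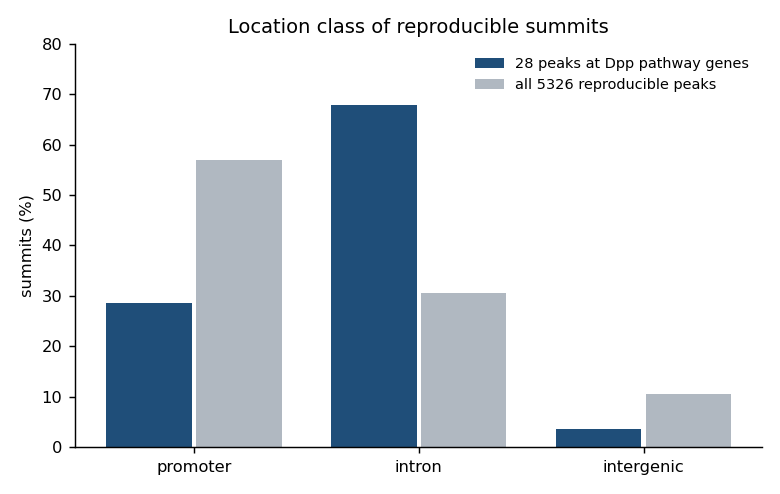
Percent of reproducible summits (y axis) by location class (x axis), for the 28 at the Dpp pathway genes (left bars) and for all 5326 (right bars). Introns held 67.9% of the member summits and promoters held 56.9% of all summits; classes without a member summit are not drawn.

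Support by the replicates was counted for each member peak. A peak counted as supported by a replicate when at least 1 bp of it was overlapped by one of that replicate's 5326 strongest peaks. All 3 replicates supported 20 of the 28 (71.4%, against 73.5% of all reproducible peaks), 4 were supported by 2 replicates and 4 by 1. With all replicate peaks counted, background calls included, each of the 28 was overlapped in all 3 lists. Replicate signals and ranks given below are those of the overlapping peak with the nearest summit. The replicate summits lay a median of 12 bp and at most 138 bp from the pooled summit. Only overlapping peaks were compared, and the pooled list was made from the same replicates, so this distance was kept short by construction.

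**Figure D4:**
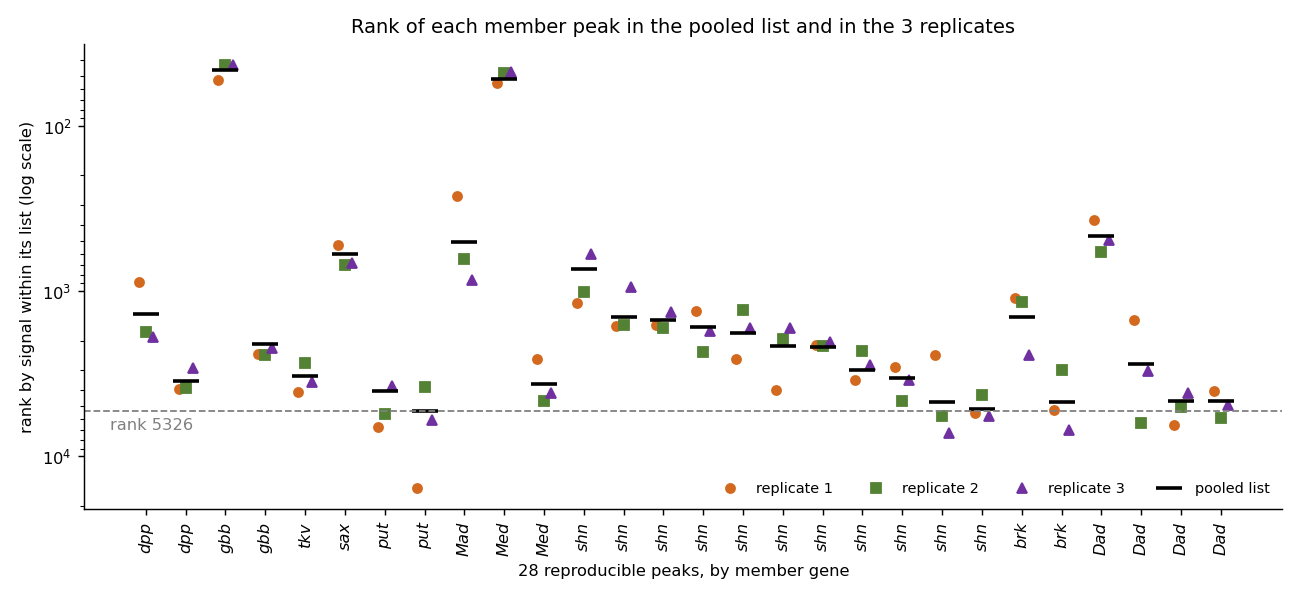
Rank by signal (y axis, log scale, strongest at the top) of the 28 reproducible peaks, ordered by gene (x axis), in replicates 1, 2 and 3 and in the pooled list. The gbb and Med peaks near rank 50 sit together in all lists, and the intronic put peak falls to rank 15655 in replicate 1; the dashed line is rank 5326.

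Among the ligand genes, dpp had a strong intronic summit and gbb had none inside the gene. The dpp gene (FBgn0000490) covers chr2L:2428372-2459823 on the plus strand, with 4 TSSs. Its strongest peak, at chr2L:2433548-2433697, had a signal of 309 and rank 1375 in the pooled list, with its summit in an intron 5253 bp downstream of the first TSS. In replicates 1, 2 and 3 that peak had signals of 129, 86.5 and 88.5 and ranks of 887, 1784 and 1905, so it was among the strongest 5326 in each. It is the member peak with the Su(H) match printed above. A second peak, at chr2L:2426434-2426829, was intergenic, 1740 bp upstream of dpp and 1249 bp from the TSS of lncRNA:CR44912. That peak had a signal of 158 and rank 3496, and ranks of 3904, 3845 and 2936 in the replicates. At the dpp start sites the strongest pooled peak reached 57.7 (rank 11164), far below the threshold, and no peak of replicate 2 overlapped it.

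The gbb gene (FBgn0024234), at chr2R:23851562-23853247 on the plus strand, is short and tightly flanked. The peak upstream of it was the strongest in any member window, with a signal of 1691 (rank 46) and signals of 502, 577 and 618 in replicates 1, 2 and 3. Its summit lay 1162 bp from the gbb TSS but 70 bp from that of asRNA:CR45928, inside ytr. Downstream, a peak with a signal of 232 (rank 2109) lay 23 bp from the TSS of Pym, an RNA-binding partner of the exon junction complex. At the gbb TSS itself the peak was 77 bp upstream, had a signal of 87.2 (rank 6877) and missed the threshold, and its nearest TSS was that of ytr, 5 bp away. Both reproducible peaks in the gbb window were thus at the promoters of neighbours.

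Of the receptor genes, the type I receptor gene tkv was long and sparsely marked, and sax and put had peaks close to the threshold. The tkv gene (FBgn0003716) covers 52385 bp at chr2L:5219000-5271384 on the minus strand. Its 1 reproducible peak, intronic and 11585 bp downstream of the nearest tkv TSS, had a signal of 165 (rank 3290), with ranks of 4076, 2748 and 3571 in replicates 1, 2 and 3. Pooled peaks were many, 18 in the window, and the next in strength had signals of 109 (rank 5384) and 101 (rank 5897, 51 bp upstream of a tkv TSS). At 0.160 reproducible summits per 10 kb tkv was the member with the lowest density, whereas its pooled density, 2.89 per 10 kb, lay above the 2.39 of the median gene.

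The other type I receptor gene, sax (FBgn0003317, chr2R:7806484-7810067, plus strand), had 1 reproducible peak in its window. That peak, with a signal of 491 (rank 597) and ranks of 525, 700 and 682 in the replicates, lay 103 bp from the TSS of puml and 5804 bp from that of sax. The peak at the sax promoter, 24 bp upstream of a TSS, had a signal of 109 (rank 5403) and fell just outside the reproducible list. Replicate ranks there were 5894, 10612 and 4739, so only replicate 3 placed it among its strongest 5326.

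The type II receptor gene put (FBgn0003169, chr3R:14619030-14625703, minus strand) had a peak at its promoter. The summit lay 4 bp upstream of the TSS, with a signal of 139 (rank 4062) and signals of 35.0, 34.4 and 51.9 in replicates 1, 2 and 3. Replicate ranks of 6670, 5543 and 3787 left only replicate 3 in support. A second peak, in an intron 1476 bp downstream, had a signal of 111 (rank 5306) and lay just inside the threshold, where the lowest reproducible signal was 110. Its replicate ranks were 15655, 3825 and 6023, so only replicate 2 placed it among its strongest 5326. Both put peaks were therefore weak, and each was supported by 1 replicate.

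The Smad genes differed in where their peaks lay. Mad (FBgn0011648, chr2L:3146056-3159643, minus strand) encodes the receptor-activated Smad and had 1 reproducible peak, with a signal of 528 (rank 509), at chr2L:3153297-3153529. It lay in an intron 693 bp upstream of the second Mad TSS and carried the Brk match shown above. Its signal was 236, 156 and 142 in replicates 1, 2 and 3, and its rank 265, 640 and 865, so it was strong in each. The first Mad TSS had only a pooled peak of 72.4 (rank 8525), nearest to the TSS of gkt.

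Med (FBgn0288966, chr3R:31611046-31615375, plus strand), the co-Smad gene, had 10 pooled summits in its window and 2 reproducible ones, neither inside the gene. One, with a signal of 1630 (rank 52) and signals of 495, 543 and 598 in the replicates, lay 7 bp from the TSS of Mnat9, downstream of Med. The other, with a signal of 152 (rank 3654), lay 112 bp from the TSS of CycG, a cyclin gene, and 1343 bp upstream of Med. No pooled summit lay within 500 bp of the Med TSS, and the closest was 602 bp upstream.

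The cofactor gene shn had the most reproducible summits of the 10. It covers 58309 bp at chr2R:11159086-11217394 on the plus strand (FBgn0003396), with 5 TSSs, and 11 of its 36 pooled summits were reproducible. Of all 13968 protein-coding genes, 11 had at least as many in their window, shn included, among them CG1677, sbb, Raf and ush. The shn summits ran over 28609 bp, starting 19532 bp from the 5′ end of the gene, with a median spacing of 1218 bp. They made 3.84 per 10 kb of that stretch, whose ends were set by the summits themselves. Over its whole window of 68309 bp shn had 1.61 per 10 kb, below the 1.71 of gbb. By that density 83.6% of protein-coding genes were lower, against 99.9% by count, and a long window has more room for summits. Signals were between 113 and 439, and ranks ran from 739 to 5170 of 5326. The strongest, with signals of 110, 122 and 171 and ranks of 1186, 1021 and 602 in replicates 1, 2 and 3, lay in an intron 3434 bp upstream of a shn TSS. One of the 11, with a signal of 177 (rank 3008), lay at a promoter, 268 bp upstream of the last TSS, and the other 10 were intronic. All 3 replicates supported 9 of them, and the 2 weakest, with signals of 113 and 123, had 1 supporting replicate each. Among the 5326 strongest peaks of replicates 1, 2 and 3 the shn window held 14, 11 and 9 summits (11.3 ± 2.52, SD, n = 3).

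Dad, the inhibitory Smad gene (FBgn0020493, chr3R:17054007-17070408, plus strand), had 3 intronic peaks and 1 downstream. The strongest, at chr3R:17065024-17065298, had a signal of 554 (rank 468) and lay 10284 bp downstream of the nearest Dad TSS. It measured 203, 164 and 188 in replicates 1, 2 and 3, with ranks of 371, 580 and 495. The other intronic peaks, 5605 bp and 2105 bp downstream, had signals of 190 and 124 and were each supported by replicates 1 and 3. The downstream peak, also at 124, lay 21 bp from the TSS of mRpS11, a mitochondrial ribosomal protein gene. Dad's own start sites had no reproducible peak, and the strongest pooled peak within 500 bp of them was 52.2 (rank 12820). With 16 pooled summits, Dad's 6.06 per 10 kb was exceeded among the members by the 6.98 of Med.

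The repressor gene brk (FBgn0024250, chrX:7307939-7311132, plus strand) had no reproducible summit inside the gene and 2 just upstream of it. One lay 818 bp upstream at chrX:7307049-7307224, with a signal of 300 (rank 1448). It measured 114, 113 and 73.5 in replicates 1, 2 and 3, and all 3 supported it. The other, 1923 bp upstream, had a signal of 123 (rank 4723), measured 41.5, 58.3 and 30.6 and was supported by replicates 1 and 2. Both lay in an intron of CG1677 and of lncRNA:CR44357. Nearest the brk TSS, the closest pooled summit was 615 bp upstream, with a signal of 35.1.

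CG1677 surrounds brk, covering 124709 bp at chrX:7281089-7405797 on the minus strand, and holds 12 further protein-coding genes. It held 15 reproducible summits, or 1.20 per 10 kb. Of these, 6 lay in the 16640 bp between unc-119 and brk, at 3.61 per 10 kb, where the pooled list had 13 summits (7.81 per 10 kb) and the replicate lists 12, 11 and 11. From the far end, the 6 lay 15954, 14712, 14170, 8363, 1923 and 818 bp upstream of brk, with signals of 117, 134, 217, 261, 123 and 300. The 14712, 14170 and 818 bp summits had all 3 replicates in support. So did the 8363 bp summit, where the nearest replicate peaks had ranks of 1338, 2072 and 5332 and a second, stronger peak of replicate 3 also overlapped. The 15954 bp summit was weak, with ranks of 5338, 5662 and 5221 and 1 replicate in support. For the first 4 of these summits the nearest TSS was that of unc-119.

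Outside that stretch, the CG1677 span held 1 reproducible summit at the TSS of CG2059, 21581 bp upstream of brk, with a signal of 269. The other 8 lay between 11334 and 30789 bp downstream, and their nearest TSSs were those of Atg5, Dok, CG42780 and CBP. The strongest of them, at 765 (rank 240), was at a promoter 262 bp from the TSS of CBP. The summits nearest brk were thus not the strongest of the span.

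Matches to the silencer element were gathered upstream of brk. The element is known as one through which brk is shut off, so matches there were foreseeable and are given as a description. The element was searched by its published consensus on both strands and had 385 matches in the genome, 0.280 per 100 kb, of which 81 were on the X chromosome. Of these, 9 lay in the 16640 bp between unc-119 and brk, which is 54.1 per 100 kb. Of those 9, 6 lay within 500 bp of a reproducible summit and 8 within 500 bp of a pooled one. Genome-wide 22 of 385 (5.71%) lay that close to a reproducible summit and 78 (20.3%) to a pooled one. The 6 matches lay 34 bp from the 15954 bp summit, 332 bp from the 14170 bp summit, 152, 184 and 335 bp from the 8363 bp summit and 247 bp from the 1923 bp summit. Those at 332, 335 and 247 bp lay outside the peak of that summit. Summits are also dense in this stretch, and no test of the closeness was made. A match is a description of letters and not a bound site.

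**Figure D5:**
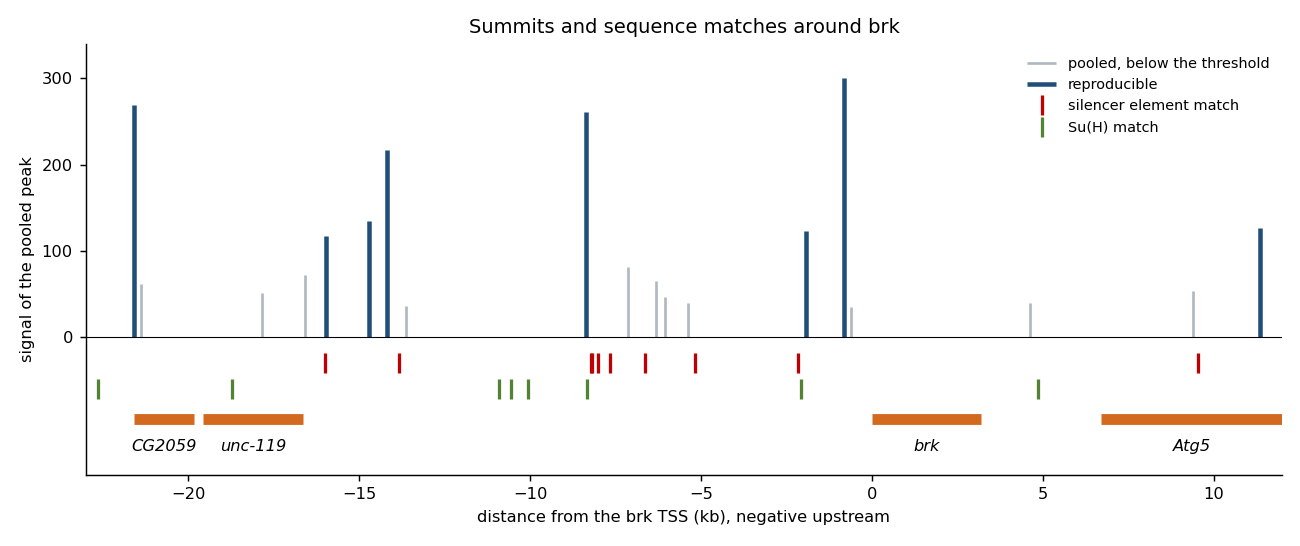
Pooled summits around brk by distance from its TSS in kb (x axis) and signal (y axis), dark where reproducible, with ticks below for silencer element (red) and Su(H) (green) matches and bars for genes; CG1677, which spans the whole region, is not drawn. Of the 9 silencer element matches between unc-119 and brk, 3 sit together beside the summit 8363 bp upstream.

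Within 100 bp of the summit, the window used for all motif counts, the element was found at 1 of the 5326 reproducible summits, the one 15954 bp upstream of brk, and at 12 of the 18747 weaker pooled summits (0.0640%). Elsewhere in the members' windows, 1 match lay in that of tkv, 2766 bp from a reproducible summit that lay outside the window, and 1 in that of shn, 648 bp from one. No member window other than those of brk, tkv and shn held a match.

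Su(H) matches were few at these genes, as over all summits. The site was searched as CGTGGGAA, TGTGGGAA, CGTGAGAA or TGTGAGAA on both strands and was found at 1 of the 28 member summits (3.57%), the intronic one of dpp, 50 bp away. The share was 2.33% of all reproducible summits (124), 2.57% of those away from promoters and 2.27% of the weaker pooled summits. Upstream of brk, the summit at 8363 bp had a match 19 bp away, and the match nearest the 1923 bp summit was 153 bp away, outside the window. The core TGGGAA, which the first pair of these forms contains, was found at 4 member summits (14.3%), against 10.4%.

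Other motifs were counted in the same windows. The Brk site, in the form GGCGCC, in the form GGCGCT, in the form GGCGTC or in the form GGCGTT, was found at 3 member summits (10.7%, against 16.9% of all reproducible and 22.2% of weaker pooled summits), 1 each in Mad, shn and Dad. The Mad site GCCGNCG was found at 1 (3.57%, against 4.13%), at the puml promoter near sax. GAGAG was found at 4 (14.3%, against 21.9%) and the Zelda site CAGGTA at 2 (7.14%, against 4.13%), 1 at dpp and 1 at shn. The promoter motifs TATCGATA (DRE) and GGTCACAC (motif 1) were found at 2 (7.14%, against 5.82%) and 1 (3.57%, against 3.15%), all at promoters of neighbours of gbb and sax. With so few matches each, no share here was set apart from the background. Mad and Brk sites can share letters, and the silencer element 15954 bp upstream of brk overlaps a Brk match.

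Beyond the 10 genes, 2 further lists, also drawn up with earlier results known, were counted the same way. The first held 23 other regulators of BMP signalling or of the related activin branch. Of these 23, 18 (78.3%) had a reproducible summit in the window, 12 inside the gene and 9 within 1000 bp of a TSS. Their median density was 0.871 per 10 kb. Over all genes the shares were 56.4% in the window, 13.4% inside the gene and 29.7% near a TSS, and over genes with windows as long as the members' they were 64.1%, 19.1% and 36.7%. The regulators' own windows ran from 10887 bp (tsg) to 135628 bp (Fur1), so they were not matched to that range. The highest signals were in the windows of Fur1, a proprotein convertase gene (1404, at the promoter of Vps33B), of cv (807, intergenic), of magu (601, at its own promoter) and of Smox, a Smad of the activin branch (518, at the promoter of CG17982). The ligand genes scw, daw, Actbeta and mav, and also tsg, had no reproducible summit, and tld and tok shared 1.

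Of 17 genes known as Dpp targets, 11 (64.7%) had a reproducible summit in the window, 2 inside the gene and 3 within 1000 bp of a TSS, at a median density of 0.732 per 10 kb. In the window of ush, which encodes a GATA cofactor of the amnioserosa, an intronic peak reached 5028 (rank 2), though its nearest TSS was that of cbt. For bam (1097, at the promoter of RpS27), tup (696, at that of CG10602) and Ance (654, at that of Smg5) the strongest peak belonged by position to a neighbour. No reproducible summit lay in the windows of zen, pnr, bap, salm, salr and lab, and Doc2 and Doc3 shared 1. The targets' shares are read against the same 56.4%, 13.4% and 29.7% of all genes, whose windows were shorter (median 12164 bp against 19643 bp). Over genes with windows as long as the members' the shares were 64.1%, 19.1% and 36.7%, though some targets' windows lay outside that range. The targets' 64.7% in the window was near that 64.1%.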

How the data were processed

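Mam-GFP ChIP-seq was measured in 3 samples, labelled as biological replicates of 1 group; whether they came from separate collections is not given beyond that. The authors deposited peak lists per replicate (30000, 24267 and 24306 peaks, background calls included), for the pooled replicates and after the IDR procedure, per the notes deposited with the samples. The aligner and peak caller, with their settings, were not given in the sources used here. The authors' signal per peak is a height of unstated scaling, and their deposited −log10 q-value (at most 4.0 in the pooled list) served only as a description. The dm3 lists and the control named in the labels were not used here.

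Summits were assigned to genes, TSSs and location classes with the Ensembl 115 annotation (BDGP6.54), leaving out transposable elements, which gave 23694 TSS positions on 7 chromosome arms. Classes took promoter (500 bp), 5′ UTR, coding sequence, 3′ UTR, non-coding exon, intron and intergenic in that order. Motifs were searched within 100 bp of a summit. Positions are 1-based. Scripts ran in Python 3.11.15 with numpy 2.4.6 and pandas 2.3.3, and the counting was tested on simulated data. The members, both other gene lists and the motifs were chosen with earlier results of these data known. All 10 members were named, with every reproducible peak in their windows, and up to 4 genes with the highest signal of each other list. With 1 group, no test was run; counts and medians are set beside those of all protein-coding genes or all peaks. Alternatives changed the flank, the list, the overlap rule, the promoter window, the TSSs, the motif window and site, and left out each replicate.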

Additional observations from a re-analysis of the deposited data

How the results depend on the processing

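All 10 members kept a reproducible summit with a flank of 10000 bp, with peak intervals in place of summits and with all pooled peaks. With flanks of 1000 and 2000 bp 8 and 9 did, and with the 2663 strongest reproducible peaks 8 did. With no flank, 6 members, 18 summits and a median density of 0.254 per 10 kb were left. Median density was 1.11, 1.61 and 0.986 per 10 kb with flanks of 1000, 2000 and 10000 bp, against 1.30. The 2663 strongest reproducible peaks gave 15 summits and 0.561 per 10 kb, and all pooled peaks gave 107 and 2.96. Leaving out each replicate gave 9 members, 21 to 22 summits, 6 to 7 promoter summits, 1 Su(H) match and densities of 0.609 to 0.747; this setting asks for support by both other replicates and so keeps fewer peaks by construction. Leaving out summits at promoters of other genes, an alternative chosen after seeing the data, gave 7 members, 22 summits and 0.453 per 10 kb. Member summits with a Su(H) match numbered 0 within 50 bp, 2 within 150 bp and 4 with the core alone, against 1; the whole site had to lie inside the window, and the middle of the dpp match lies 50 bp from its summit. The number at promoters was 7 and 11 with windows of 200 and 1000 bp and 8 with TSSs of protein-coding genes only. Support by 3 replicates held for 15 peaks with reciprocal overlap of 50%, 19 with the replicate summit inside the peak and 28 with all replicate peaks, against 20.

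Whole embryos mix stages and cell types, and a peak's gene is taken by position only. The labelled control was not analysed here, so a peak's enrichment over it is not given. Read depth is unknown, which leaves no counting error for a signal, and peaks near the threshold, such as those of put and sax, changed sides between replicates. Windows of neighbouring genes share summits.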
